A study of Mus musculus with 12 samples.

Results

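The R-spondin receptor system was represented on the array by 10 of 19500 named genes and by 18 of 41174 distinct probes. The genes were chosen by name and comprised the ligands *Rspo1*, *Rspo2* and *Rspo3*, the R-spondin receptors *Lgr4*, *Lgr5* and *Lgr6*, the Wnt co-receptors *Lrp5* and *Lrp6*, and the membrane ubiquitin ligases *Rnf43* and *Znrf3*. A probe counted as detected when the scanner software marked its signal as well above background on every one of the 3 arrays in 1 treatment group or more, which held for 9 of the 18 probes, those of 6 genes, and for 22750 probes of the whole array. C57MG, an established mouse mammary line, was moved to plain DMEM and incubated for 24 h with BSA alone as the vehicle, with 100 ng/ml recombinant human R-spondin2 (Rspo2), with 100 ng/ml recombinant mouse Wnt3a, or with 100 ng/ml of each protein together. Each of these 4 groups had 3 cultures, and each culture gave 1 array, 12 in all.

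R-spondins are secreted proteins that bind Lgr4, Lgr5 or Lgr6 together with Rnf43 or Znrf3. Rnf43 and Znrf3 remove Frizzled Wnt receptors from the cell surface, and binding of an R-spondin clears these ligases from the membrane, so that more receptor is left for Wnt proteins. Wnt3a joins Frizzled to Lrp5 or Lrp6, which leads to the accumulation of β-catenin, and *Rnf43*, *Znrf3*, *Lgr5* and *Axin2* are well-known targets of that signal. In the mammary gland R-spondins and Wnt proteins are known as growth factors of basal and stem cells.

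Of the R-spondin receptors *Lgr4* and *Lgr6* were detected, while *Lgr5* was at or near background and no R-spondin transcript was detected. With Rspo2 and Wnt3a together, *Lgr6*, *Lrp5* and 2 of the 3 detected *Lgr4* probes fell and *Znrf3* and *Rnf43* rose against BSA. With slide as a further covariate, of these calls only that of 1 *Lgr6* probe, A_52_P616580, remained. In that fit *Lrp5* went from -1.29 to -0.48 and the *Lgr6* probe A_52_P75777 from -1.23 to -0.61. *Znrf3* went from 1.22 to 1.47 and *Rnf43* from 0.69 to 1.55 (adjusted p = 0.169 and 0.054). The *Lgr4* probes went from -0.52 to -0.31 and from -0.80 to -1.14. The share of all detected probes that passed in that fit is not given here. With Rspo2 alone only A_52_P616580 passed, 0.49 higher, and the call was lost when slide was allowed for (0.38, adjusted p = 0.298) and in 9 of 26 alternatives in all. For both *Lgr6* probes the change with the combination differed from the sum of the separate changes, at A_52_P616580 also in the fit with a slide term, but neither difference passed after normexp, a model-based background correction (adjusted p = 0.431 and 0.904).

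The arrays lay on 3 slides of 4 arrays, and this bears on every comparison with BSA. The slide 1 arrays were BSA replicates 1 to 3 and Rspo2 replicate 1. Rspo2 replicates 2 and 3 shared slide 2 with Wnt3a replicates 1 and 2, and Wnt3a replicate 3 shared slide 3 with the 3 arrays of the combination. BSA and Wnt3a, and BSA and the combination, shared no slide, so treatment and slide can be told apart there only through the other groups, in a fit that also holds a slide term. A difference was said to rise, fall or pass the test when its limma p was under 0.05 after Benjamini-Hochberg adjustment across the 22750 detected probes. Signals are given on the log2 scale, scaled to the array's 75th percentile, and changes are differences of group means on that scale. In such bulk RNA, fewer cells of a type and less RNA per cell cannot be told apart.

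The label of the cells, mammary epithelial, was set against marker genes. Of 8 luminal epithelial markers 2 were detected, *Krt8* and *Cldn3*, while *Cdh1* and *Cldn7*, which encode junction proteins of epithelia, were well above background on no array and *Epcam* on 2 of 12. Of 7 basal or myoepithelial markers 5 were detected, among them the keratin *Krt14* and the smooth muscle actin *Acta2*, and of 8 fibroblast or mesenchymal markers 7 were detected, among them *Vim* and *Col1a1*. The defining luminal markers were thus largely absent. Endothelial markers were detected for 1 gene of 4 (*Cdh5*), adipocyte markers for 1 of 3 (*Fabp4*) and leukocyte markers for 3 of 4, and the pan-leukocyte gene *Ptprc* was well above background on 1 array.

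Some of these markers moved with the combination, those of the basal list in both directions, where 21.9% of all detected probes passed the test higher and 17.3% lower. Of its 5 detected genes 2 rose, *Krt14* by 1.24 and *Acta2* by 0.78 on the log2 scale (adjusted p = 8.28e-06 and 7.26e-05), and 2 fell, the keratin *Krt17* by 0.35 and the transcription factor *Trp63* by 0.40 (adjusted p = 0.00836 and 0.0143). The luminal *Krt8* fell by 1.15 and *Pdgfra*, a mesenchymal receptor, fell by 1.37 (adjusted p = 0.000365 and 8.77e-06), as 1 of 4 mesenchymal genes that fell while 0 rose, of 7 detected. The other three, *Vim*, *Col1a1* and *Col1a2*, changed by 0.17, -0.07 and -0.19 without passing (adjusted p = 0.127, 0.620 and 0.128). The single detected endothelial and adipocyte genes, *Cdh5* and *Fabp4*, fell by 0.55 and 0.81 (adjusted p = 0.000259 and 0.000822). The summed signal of the basal list, which follows its most abundant gene *Acta2* (mean log2 signal 6.96 with BSA and 7.75 with both) rather than the list as a whole, ran from 133 to 141 times the array's 75th percentile in the BSA group, from 171 to 193 in the Rspo2 group, from 185 to 206 in the Wnt3a group and from 220 to 258 in the combination. The summed signal of the mesenchymal list, led by *Vim*, was 237 to 258 with BSA and 244 to 246 with both. That of the luminal list, most of whose genes were not detected, was 0.18 to 0.38 with BSA and 0.108 to 0.296 with both. *Krt8* had a mean log2 signal of -3.51 with BSA and -4.66 with both, close to that of *Cldn3* with both (-4.81). All these marker values are of the main fit, in which BSA and the combination shared no slide. The markers were not run with a slide term or with normexp. Their part in the changes of the receptor genes was not tested.

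**Figure D1:**
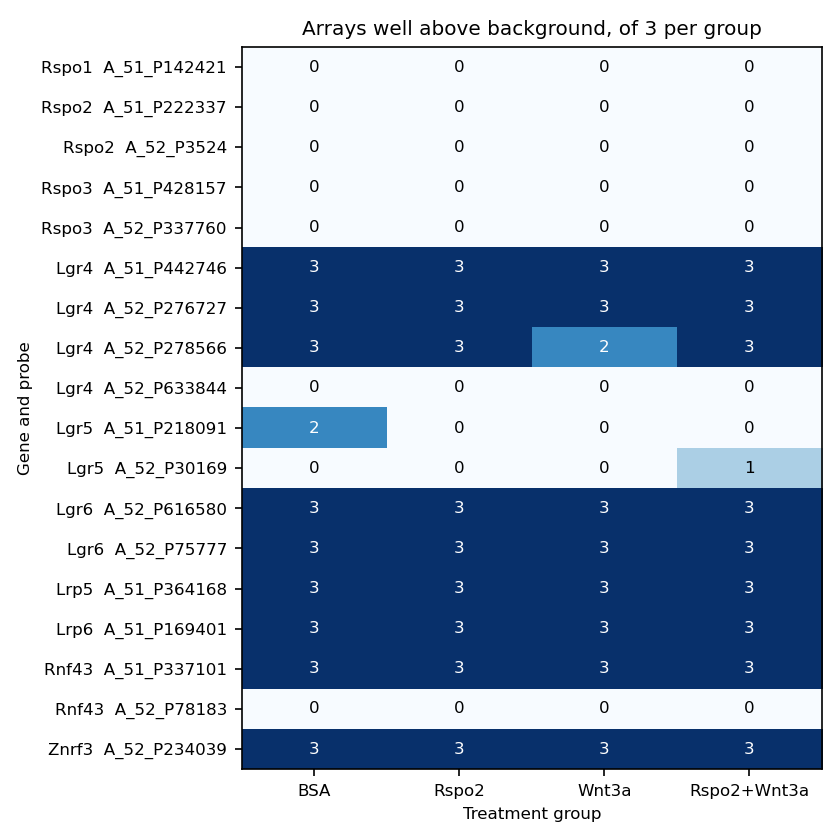
Number of arrays, of 3 per treatment group, on which each of the 18 probes (rows, with gene and probe name) was well above background. *Rspo1*, *Rspo2* and *Rspo3* were at 0 in every group, and the detected probes belong to *Lgr4*, *Lgr6*, *Lrp5*, *Lrp6*, *Rnf43* and *Znrf3*.

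The R-spondin ligands were not detected. The *Rspo1* probe, both *Rspo2* probes and both *Rspo3* probes were well above background on 0 of 12 arrays. The *Rspo1* probe had intensities from 3.41 to 32.0 with a median of 6.18, and the brightest of these was on Rspo2 replicate 2. The *Rspo2* probes reached at most 11.9 and 9.12 intensity units and the *Rspo3* probes at most 13.7 and 12.5. For comparison, of the probes well above background on an array 1% lay below a value that ranged from 17.1 to 54.8 units between arrays, and the lowest such signal on any array was 15.4. No fold change is given for these probes. *Rspo4*, the remaining R-spondin, was well above background on 1 array and not detected either.

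*Lgr5*, the receptor known as a stem cell marker, was not detected by either probe. One probe (A_51_P218091) was well above background on BSA replicates 1 and 3, at 26.1 and 45.7 intensity units, but not on BSA replicate 2, at 8.92. On the 9 treated arrays that probe ranged from 3.17 to 13.1 units and was never well above background. The other probe (A_52_P30169) was well above background on 1 array, replicate 1 of the combination, at 21.2 units, against 4.63 and 6.49 on the other two of that group. The probes thus placed signal in different groups, and neither was tested.

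*Lgr4*, a receptor for all 4 R-spondins, had 3 detected probes of 4, and not all of them passed the test. The probe A_51_P442746 had log2 signals of -0.04, -0.33 and -0.14 with BSA, -0.15, -0.21 and -0.60 with Rspo2, -0.46, -0.64 and -0.51 with Wnt3a, and -0.84, -0.62 and -0.61 with both. The 3 arrays with both proteins lay below all BSA arrays, and so did the 3 arrays with Wnt3a. This probe fell by 0.52 ± 0.13 (SE) with both (adjusted p = 0.00852), and its change with Wnt3a was -0.37 ± 0.13 (adjusted p = 0.0508). The call with both was lost with slide as a term (-0.31, adjusted p = 0.682) and with normexp (-0.43, adjusted p = 0.146). It was also lost by the methods' t-test after Benjamini-Hochberg adjustment (adjusted p = 0.0582). The probe A_52_P276727 had signals from -0.34 to -0.07 with BSA and from -0.41 to -0.28 with both, so that its groups overlapped, and its change with both was -0.17 with a 95% confidence interval of -0.39 to 0.05 (adjusted p = 0.197).

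The distance between these *Lgr4* probes was measured on each array. Relative to BSA, A_51_P442746 less A_52_P276727 was -0.44 ± 0.22 (SD, n = 3) with Wnt3a and -0.35 ± 0.08 (n = 3) with both, with values of -0.44 to -0.27 in the latter group, against -0.02 to 0.03 in the BSA group. With Rspo2 it was -0.23 ± 0.26 (n = 3), and its highest value there, -0.03, was that of replicate 1, the array on slide 1 with BSA, while the lowest, -0.52, was on slide 2. All Wnt3a and combination arrays were on slides 2 and 3, so for this distance the part of slide was not tested. The file places A_51_P442746 on chromosome 2 at 109863462 to 109863521 and A_52_P276727 at 109864637 to 109864696, in coordinates whose genome build is not given in the sources used here. In the main fit a fall of *Lgr4* passed at only some of its probes, and with slide as a term at none. The interval of A_52_P276727 with both proteins also held a fall, and no difference between probes was tested. The dimmest detected probe, A_52_P278566, had intensities of 51.4 to 72.1 with BSA and 18.9 to 36.6 with Wnt3a and was not well above background on Wnt3a replicate 2. It fell by 0.85 with Wnt3a and by 0.80 with both (adjusted p = 0.046 and 0.0497), calls that were lost in 17 and 19 of 25 alternatives, including without BSA replicate 1 (adjusted p = 0.149 and 0.156) and without BSA replicate 2 (0.0975 and 0.104). Without combination replicate 1 the change with both was -0.52 (adjusted p = 0.186). With normexp the change with Wnt3a was -0.45 (adjusted p = 0.785). The fourth probe, A_52_P633844, was well above background on no array.

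*Lgr6*, the remaining receptor, was the member that passed the test in the most comparisons. The probe A_52_P616580 had log2 signals of -1.97, -1.83 and -1.97 with BSA, -1.54, -1.37 and -1.41 with Rspo2, -2.19, -2.44 and -2.30 with Wnt3a, and -3.47, -3.12 and -3.16 with both. The 4 groups did not overlap, with Rspo2 the highest, then BSA, Wnt3a and the combination. The probe A_52_P75777 had signals of -3.08, -3.36 and -2.80 with BSA, -2.76, -2.67 and -2.50 with Rspo2, -2.87, -3.10 and -3.78 with Wnt3a, and -4.36, -4.49 and -4.09 with both. Here the combination lay below every other array and Rspo2 above every other array, while BSA and Wnt3a overlapped. Over the 12 arrays Pearson's r between the log2 signals of both probes was 0.909, a description of arrays that share groups and slides. The file places them on chromosome 1, at 134876990 to 134877049 and 134873746 to 134873805. With BSA the intensities were 243 to 323 units at the first probe and 112 to 155 at the second. With both proteins they were 84.8 to 119 and 42.6 to 62.3.

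With the combination, *Lgr6* fell 2.51-fold by the first probe and 2.35-fold by the second against BSA, which are log2 changes of -1.33 ± 0.11 and -1.23 ± 0.22 (SE, adjusted p = 1.03e-05 and 0.00153). The first call held in all 26 alternatives run for this comparison. The second was lost after a slide term was added, where the changes were -1.50 (adjusted p = 0.0244) and -0.61 (adjusted p = 0.484), and with the normexp background correction (-0.92, adjusted p = 0.219). Against Wnt3a alone, adding Rspo2 lowered *Lgr6* by a log2 change of -0.94 ± 0.11 and -1.06 ± 0.22 (adjusted p = 0.000643 and 0.0209). Within slide 3, which held Wnt3a replicate 3 with the combination, these differences were -0.95 and -0.54. The second probe lost this call without Wnt3a replicate 1 (-0.87, adjusted p = 0.0721), Wnt3a replicate 2 (-0.99, 0.0947), combination replicate 1 (-1.04, 0.063) or combination replicate 2 (-0.97, 0.0958), with the replicate block (0.0518), with slide as a term (-0.54, 0.434), with only the groups compared in the fit (0.0969) and with no filter on dim probes (0.0854). With normexp neither probe passed here, at -0.68 and -0.56 (adjusted p = 0.599 and 0.99993). Neither passed by the methods' t-test after Benjamini-Hochberg adjustment (adjusted p = 0.229 and 0.442).

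Each protein alone moved *Lgr6* less. With Rspo2 the first probe rose by 0.49 ± 0.11 (adjusted p = 0.0212), and the second changed by 0.44 with a 95% confidence interval of -0.04 to 0.92 (adjusted p = 0.18). Within slide 1, Rspo2 replicate 1 lay 0.38 and 0.33 above the mean of the BSA arrays. The call of the first probe was lost without BSA replicate 1 (adjusted p = 0.0691), BSA replicate 3 (0.0651), Rspo2 replicate 2 (0.0566) or Rspo2 replicate 3 (0.0766), at changes of 0.45 to 0.47, and with the replicate block (0.0524), normexp (0.623) or slide as a term (0.298). With Wnt3a the first probe fell by 0.39 ± 0.11 (adjusted p = 0.0206), a call lost in 7 of 26 alternatives. Among these were the fits without BSA replicate 2 (-0.34, adjusted p = 0.0729) or Wnt3a replicate 2 (-0.32, 0.0787), with normexp (-0.39, 0.417) and with slide as a term (-0.54, 0.306). The others were quantile normalization (-0.22, 0.235), no filter on dim probes (0.0678) and the methods' t-test after Benjamini-Hochberg adjustment (0.0872). The second probe changed by -0.17, with an interval of -0.65 to 0.31. Wnt3a against Rspo2, the pair with 2 arrays each on slide 2, differed by -0.87 ± 0.11 at the first probe (adjusted p = 0.00358) and by -0.93 within that slide. With normexp this difference did not pass (-0.88, adjusted p = 0.42), nor by the methods' t-test after Benjamini-Hochberg adjustment (adjusted p = 0.351).

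The promoter of *Lgr6* is shown because *Lgr6* is the member on which the results turn, and that of *Rnf43* because it rose with the same treatment. Both are the 250 bases before the annotated start of the gene in RefSeq (build GRCm38.p6), 5′ to 3′ on the strand of the gene, and *Rnf43* is shown for the first of its 2 starts. RefSeq promoters were given for 4 of the 10 genes.
Lgr6, chr1:135105277-135105526, minus strand: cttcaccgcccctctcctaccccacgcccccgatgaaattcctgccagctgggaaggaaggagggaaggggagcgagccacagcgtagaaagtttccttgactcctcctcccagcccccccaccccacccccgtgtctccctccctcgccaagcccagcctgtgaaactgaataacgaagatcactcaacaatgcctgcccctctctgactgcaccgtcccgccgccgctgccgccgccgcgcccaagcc
Rnf43, chr11:87662837-87663086, plus strand: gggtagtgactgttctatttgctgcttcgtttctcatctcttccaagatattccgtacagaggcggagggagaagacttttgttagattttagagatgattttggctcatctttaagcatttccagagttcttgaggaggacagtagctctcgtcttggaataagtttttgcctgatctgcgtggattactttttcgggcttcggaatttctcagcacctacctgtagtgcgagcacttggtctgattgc
The *Lgr6* stretch holds 65.2% G and C and that of *Rnf43* 44.4%. The core of the T-cell factor motif was searched on both strands as CTTTGAA or its variant CTTTGAT and as CTTTGTA or its variant CTTTGTT, and 14.8% of the 32851 promoter stretches of that length held at least 1 match. No match was present in these windows or in that of *Lgr4*, so no letters are in capitals, which says only that these letters are not within the 250 bases.

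*Lrp5*, a co-receptor of Wnt proteins, fell with the combination. Its probe had log2 signals of 0.14, 0.32 and 0.64 with BSA, -0.09, 0.01 and -0.28 with Rspo2, 0.40, -0.76 and -0.95 with Wnt3a, and -1.18, -1.08 and -0.50 with both. The combination and the Rspo2 arrays lay below all BSA arrays, whereas Wnt3a replicate 1 lay among the BSA arrays and the other two Wnt3a arrays far below them. The change with both was -1.29 ± 0.31 (SE, adjusted p = 0.00785), a 2.44-fold decrease. Allowing for slide it was -0.48 (adjusted p = 0.801), and within slide 3 the combination differed from Wnt3a replicate 3 by 0.03. The change with Wnt3a alone was -0.80 with a 95% confidence interval of -1.49 to -0.12 (adjusted p = 0.0714), and -1.22 (adjusted p = 0.00477) without Wnt3a replicate 1. The change with Rspo2 alone was -0.48 (interval -1.17 to 0.20), and -0.45 within slide 1.

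*Lrp6*, the paralogue of *Lrp5*, did not pass the test in any comparison. Its signals ran from -2.21 to -2.10 with BSA and from -2.94 to -2.36 with both, and these groups did not overlap. The change with both was -0.42 with an interval of -0.79 to -0.06 (adjusted p = 0.0652), and the call was made without Rspo2 replicate 3 (adjusted p = 0.0425) or combination replicate 3 (-0.53, adjusted p = 0.0404). Allowing for slide the change was -0.07. The changes with Rspo2 and with Wnt3a were -0.16 (interval -0.53 to 0.21) and -0.13 (interval -0.50 to 0.23).

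*Znrf3*, which encodes a ubiquitin ligase that limits Wnt signaling, rose with Wnt3a and with the combination. Its log2 signals were 0.23, -0.62 and -0.34 with BSA, -0.03, 0.06 and 0.03 with Rspo2, 0.53, 0.78 and 0.33 with Wnt3a, and 0.79, 0.94 and 1.19 with both. Every array with Wnt3a, alone or with Rspo2, lay above every array without it. The change was 0.79 ± 0.20 with Wnt3a (SE, adjusted p = 0.0118) and 1.22 ± 0.20 with both (adjusted p = 0.000853), a 2.33-fold increase. Both directions held with slide as a term, at 0.83 and 1.47, but the adjusted p-values were then 0.381 and 0.169, and the call with Wnt3a was also lost with normexp (0.88, adjusted p = 0.085). By the methods' t-test the p for Wnt3a was 0.0674, and after Benjamini-Hochberg adjustment of that test neither change passed (adjusted p = 0.192 with Wnt3a and 0.0849 with both). Within slide 2, *Znrf3* was 0.61 higher with Wnt3a than with Rspo2, and within slide 3 it was 0.64 higher with both than with Wnt3a. The difference between both and Wnt3a over all slides was 0.43 ± 0.20 (SE, adjusted p = 0.275).

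*Rnf43*, the related ligase, rose with the combination and was measured by 1 probe of 2. Its signals were -2.23, -2.65 and -2.50 with BSA, -2.19, -2.79 and -3.00 with Rspo2, -2.23, -2.34 and -2.44 with Wnt3a, and -2.02, -1.73 and -1.55 with both. The combination lay above every other array, and the remaining groups overlapped. The change with both was 0.69 ± 0.20 (SE, adjusted p = 0.0181), a 1.62-fold increase, and 0.30 with normexp (adjusted p = 0.728). This call was lost in 9 of 26 alternatives, among them without BSA replicate 2 (0.60, adjusted p = 0.066), BSA replicate 3 (0.67, 0.0522), combination replicate 2 (0.67, 0.0535) or combination replicate 3 (0.58, 0.0602), and in the fit with a slide term the change was 1.55 (adjusted p = 0.054). Within slide 3 *Rnf43* was 0.67 higher with both than with Wnt3a, and within slide 2 it was 0.61 higher with Wnt3a than with Rspo2. With Wnt3a alone it changed by 0.12 against BSA (interval -0.31 to 0.56), a value that was 0.88 (adjusted p = 0.208) with slide allowed for.

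**Figure D2:**
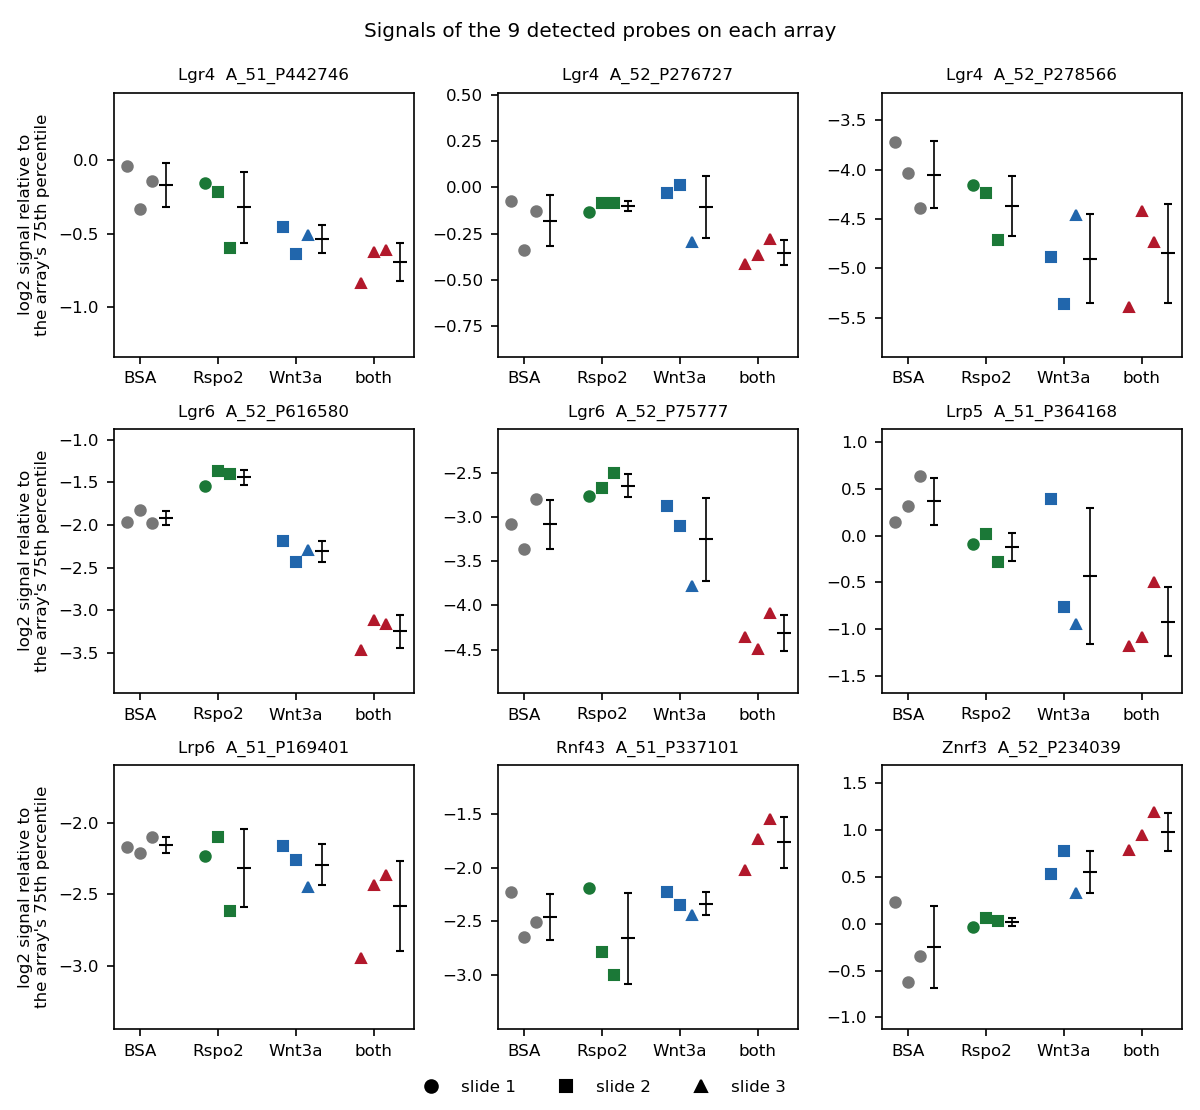
Log2 signal scaled to the array's 75th percentile (vertical axis, a separate scale in each panel) for the 9 detected probes on each of the 12 arrays, by treatment group, with the mean and SD (n = 3) in black and the slide given by the shape of the point. For *Lgr6* probe A_52_P616580 the 4 groups do not overlap, and the *Znrf3* arrays with Wnt3a lie at 0.33 or above while those without it lie at 0.23 or below.

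Counted over the 9 detected probes, the combination moved the most. With Rspo2 alone 1 probe passed the test (*Lgr6*, higher), where 16.8% of all detected probes passed and 10.9% passed higher. With Wnt3a alone 3 passed (1 higher, 2 lower) against 31.5% of all, 18.3% higher and 13.2% lower. With both proteins 7 passed (2 higher, 5 lower) against 39.2%. Of all detected probes 21.9% passed higher and 17.3% lower with both.

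Changes of at least 2-fold were seen only with the combination among the comparisons with BSA. They comprised 4 probes, *Znrf3* higher and *Lrp5* and both *Lgr6* probes lower, where 5.08% of all detected probes passed the test with such a change, 1.28% higher and 3.79% lower. No probe reached that size with Rspo2 (0.721% of all) or Wnt3a (2.52%). At an unadjusted limma p under 0.05 and with no fold required, 1 of 9 probes passed with Rspo2 and 5 of 9 with Wnt3a, where 35% and 43% of all detected probes did. In the fit with a slide term the 4 probes became 1, that of *Lgr6* (A_52_P616580). The shares above are of the main fit, and the share of all detected probes with a slide term is not given here. The groups did not overlap for 3 of 9 probes with Rspo2, 4 with Wnt3a and 8 with both, where 43.5%, 45.5% and 54% of all detected probes did not overlap. The median log2 change of the 9 probes with both was -0.52, beside 0.04 over all detected probes. On each of the 12 arrays 8 of the 9 probes were well above background, so their detection did not rest on 1 group.

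Adding Rspo2 to Wnt3a moved 2 probes, both of *Lgr6* and both lower, where 4.27% of all detected probes passed, 2.49% lower. One of these, A_52_P75777, changed at least 2-fold, against 0.747% of all and 0.334% lower. The groups did not overlap for 4 of 9 probes (21.4% of all). Between Wnt3a and Rspo2, 1 probe passed, that of *Lgr6*, lower with Wnt3a (1.47% of all, 1.09% lower), and it changed less than 2-fold, as 0.202% of all passed with at least that change. The groups of that comparison did not overlap for 3 of 9 probes (17.7% of all).

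**Figure D3:**
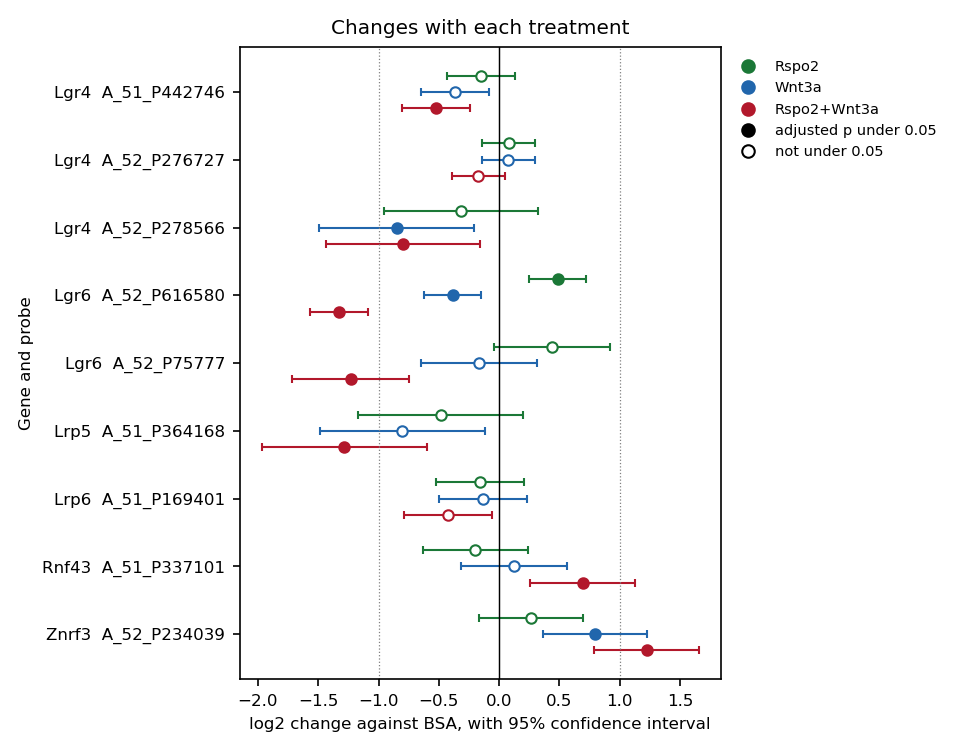
Log2 change against BSA with its 95% confidence interval (horizontal axis) for the 9 detected probes with Rspo2, Wnt3a and both, with filled points where the adjusted p was under 0.05 and dotted lines at a 2-fold change. With both proteins 7 of the 9 points are filled, from -1.33 for *Lgr6* to 1.22 for *Znrf3*.

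**Figure D4:**
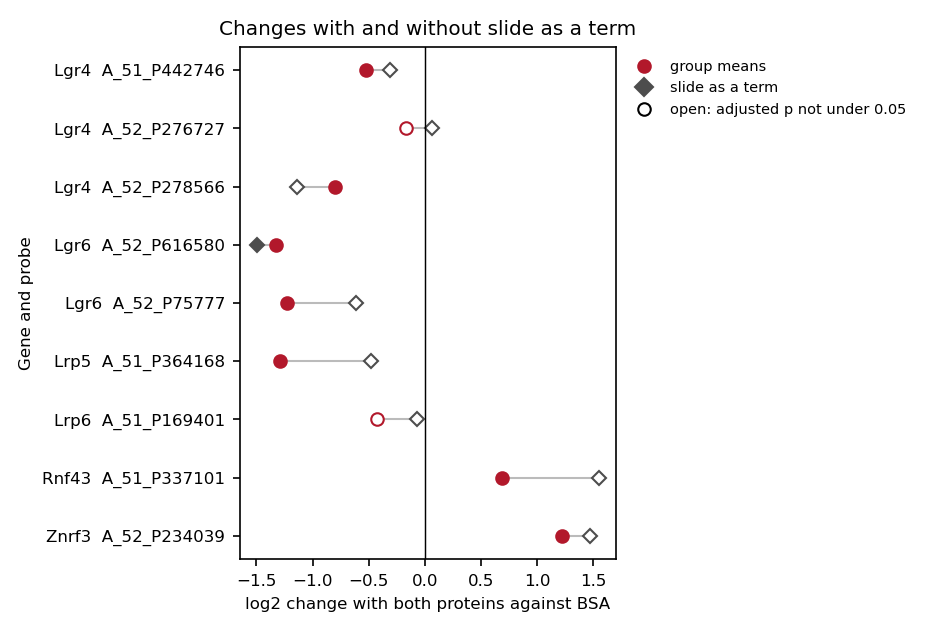
Log2 change with both proteins against BSA (horizontal axis) for the 9 detected probes, from group means (circles) and from the fit with a slide term (diamonds), filled where the adjusted p was under 0.05. With slide as a term only the *Lgr6* probe A_52_P616580 stays filled, at -1.50, and *Lrp5* moves from -1.29 to -0.48.

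The change with both was set against the sum of the separate changes, which on the log2 scale is the interaction of Rspo2 and Wnt3a. For *Lgr6* the sums were 0.10 and 0.27 and the changes with both -1.33 and -1.23. The difference was -1.43 ± 0.15 (SE, adjusted p = 0.00082) for A_52_P616580 and -1.50 ± 0.31 (adjusted p = 0.0197) for A_52_P75777, and 8.9% of all detected probes passed that test, 5.31% with a negative difference. With a difference of at least 2-fold, as both *Lgr6* probes had, 1.93% of all passed, 0.651% negative. These were the 2 of 9 probes that passed. The first held with slide as a term (-1.34, adjusted p = 0.0405), and the second did not (-0.86, adjusted p = 0.255). The second was also lost without Rspo2 replicate 3 (-1.43, adjusted p = 0.0509), Wnt3a replicate 2 (-1.43, 0.0553) or combination replicate 2 (-1.41, 0.0557). With the normexp background correction neither passed, at -1.18 and -1.12 (adjusted p = 0.431 and 0.904).

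For the remaining members the change with both was not shown to differ from the sum. That of *Lrp5* was 0.00 (interval -0.97 to 0.97), a range wide enough to hold a nearly 2-fold difference either way. For *Znrf3* the difference was 0.16 (interval -0.45 to 0.78). For *Rnf43* it was 0.77 (interval 0.15 to 1.39, adjusted p = 0.103), and 1.00 (adjusted p = 0.0216) without Rspo2 replicate 1. In the fit with a slide term that difference was 0.40 (adjusted p = 0.465), and with normexp it changed sign, to -0.08 (adjusted p = 0.970).

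**Figure D5:**
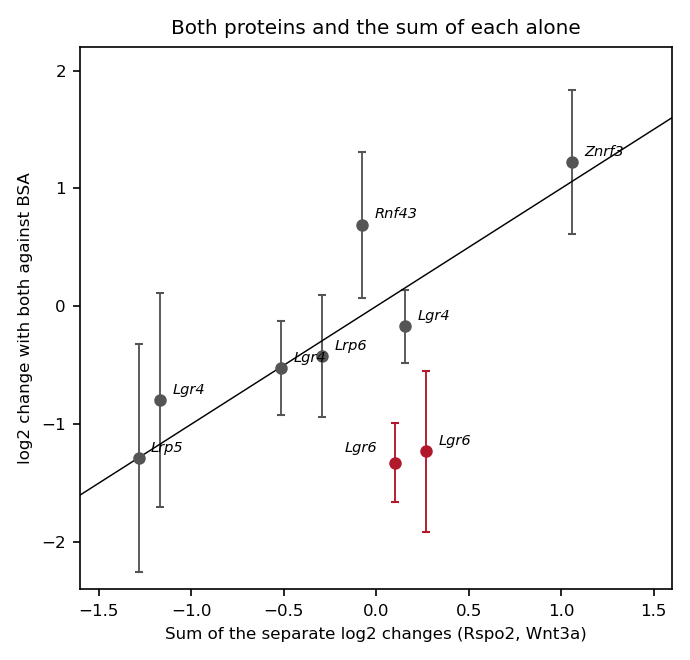
Log2 change with both proteins against BSA (vertical axis) and the sum of the changes with Rspo2 alone and Wnt3a alone (horizontal axis) for the 9 detected probes, with the line of equality and bars for the 95% confidence interval of the difference between them. Both *Lgr6* probes, in red, lie below the line, at -1.43 and -1.50 from it, and the interval of *Lrp5*, which lies on the line, spans -0.97 to 0.97.

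Other genes of the receptor pathway were described by lists, with the brightest probe standing for each gene. For every list the shares of all detected probes are of the main fit. None is given for the slide term or normexp, so counts in those fits cannot be set against the whole array. Of 24 genes of the Lrp5/6 signalosome and β-catenin degradation complex 23 were detected, and with both proteins 3 rose and 3 fell, beside 21.9% and 17.3% of all detected probes. *Cdk14* and its partner cyclin *Ccny*, which phosphorylate Lrp6, rose by 0.64 and 0.56 (adjusted p = 0.000231 and 0.0174). *Caprin2* and *Tmem198*, which promote Lrp6 phosphorylation, fell by 0.77 and 0.44 (adjusted p = 5.36e-05 and 0.0263). The median log2 change of the list was -0.03, and in the fit with a slide term 0 genes of it passed in either direction. With normexp 1 gene of the list passed with both proteins, *Cdk14*, in the higher direction (0.68, adjusted p = 0.0185). With Rspo2 alone 1 rose and 1 fell, beside 10.9% and 5.93% of all, and with Wnt3a alone 2 rose and 3 fell, beside 18.3% and 13.2%, and all of these calls were lost with a slide term and with normexp.

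Of 13 antagonists that act at Lrp5/6, at Kremen or on Wnt proteins, 5 were detected, and with both proteins 2 rose and 1 fell, beside the same 21.9% and 17.3% of all. *Notum*, whose product inactivates Wnt proteins, rose by 1.46 ± 0.07 (SE, adjusted p = 4.21e-07) and *Apcdd1*, a membrane inhibitor, by 1.39 ± 0.11 (adjusted p = 1.14e-05). *Igfbp4* fell by 0.62 (adjusted p = 0.000869). *Notum* had not passed with Rspo2 (-0.10) or Wnt3a (0.16), and its interaction was 1.40 (adjusted p = 0.000103), which passed in the fit with a slide term (1.54, adjusted p = 0.00657) but not with normexp (1.42, adjusted p = 0.0934). *Sost* and *Kremen1* changed by 0.17 and 0.32 without passing, and *Dkk1*, *Dkk3*, *Dkk4* and *Sostdc1* were well above background on no array. In the fit with a slide term 1 gene of this list passed with both proteins, *Notum*, and with normexp *Notum* and *Apcdd1* passed and *Igfbp4* did not (-0.58, adjusted p = 0.206). With Wnt3a alone *Apcdd1* rose by 0.53 and *Igfbp4* fell by 0.54 (adjusted p = 0.00663 and 0.00326). Both of these calls were lost with a slide term (adjusted p = 0.393 and 0.175) and with normexp (adjusted p = 0.0811 and 0.249). The share of all detected probes that passed in those fits is not given here.

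Of 8 further partners of R-spondins and ligases of the pathway 6 were detected. With both proteins 1 of them passed, beside 17.3% of all detected probes that passed lower. This was *Nedd4l*, a ubiquitin ligase, which fell by 0.38 (adjusted p = 0.00712). With Wnt3a alone *Nedd4l* changed by -0.46 (adjusted p = 0.00441), a call lost with a slide term and with normexp. *Sdc4*, a syndecan, and *Iqgap1*, a scaffold protein, both R-spondin partners, changed by -0.52 and -0.19 (adjusted p = 0.225 and 0.141). In the LDL receptor family, to which *Lrp5* and *Lrp6* belong, 7 of 14 genes were detected, and with both proteins 1 rose and 3 fell, again beside 21.9% and 17.3% of all detected probes. *Lrp1*, a large endocytic receptor, fell by 0.74 and *Lrp12* by 0.43, and the chaperone *Lrpap1* rose by 0.40 (adjusted p = 0.0103, 0.00202 and 0.00908). None of the detected genes in these 2 lists passed with both proteins once a slide term was added, and none passed with normexp. For these fits too the share of all detected probes is not given. None of 5 other leucine-rich repeat receptors, relatives of the Lgr genes (*Fshr*, *Lhcgr*, *Tshr*, *Rxfp1* and *Rxfp2*), was detected.

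The wider list of β-catenin target genes is given as a description of the setting in which the ligases rose. It was chosen with earlier results of these data known. The study had reported *Rhou*, *Klf5*, *Ccnd1* and *Axin2* as higher on these same arrays, so the counts are no independent test. *Notum* and *Apcdd1* are also among the antagonists counted above. Of 19 genes 13 were detected, but *Axin2* and *Ascl2* only through the arrays with both proteins, so counts are given over the 11 that were well above background on all BSA arrays. Of these 1 rose with Rspo2 (10.9% of all detected probes), 5 with Wnt3a (18.3%) and 8 with both (21.9%), where 1 more, *Sox9*, fell by 1.02 (adjusted p = 0.000274), a gene named after its values were seen. *Rhou*, a small GTPase, rose by 3.68, *Tcf7*, a T-cell factor, by 2.57, *Klf5*, a transcription factor, by 2.34 and *Ccnd1*, cyclin D1, by 1.70 with both (adjusted p = 4.99e-08, 2.99e-07, 5.66e-07 and 2.16e-05). *Axin2*, likewise named afterwards, was well above background on the 3 arrays with both proteins and on no other, at least 9.39-fold higher than with BSA. That bound is against the lowest signals well above background on the BSA arrays. The median log2 change of the 11 genes with both was 1.39, beside 0.04 over all detected probes. With a slide term 0 of the 11 genes passed higher with Rspo2, 2 with Wnt3a and 4 with both, *Rhou*, *Tcf7*, *Klf5* and *Notum*, while *Ccnd1* (1.25, adjusted p = 0.127) and *Sox9* (-1.36, adjusted p = 0.0665) did not pass. With normexp 0 passed higher with Rspo2, 1 with Wnt3a and 6 with both, where *Sox9* was again lower. The shares of all detected probes above are of the main fit, and none is given here for these alternatives.

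The probes most like the members were sought among the 18134 probes marked above background on each of the 12 arrays, for the 4 member probes of largest variance. The *Lgr6* probe A_52_P616580 was most like *Tafa5* (Pearson's r = 0.978), *Tcim* (0.975) and *Gpnmb* (0.974), and A_52_P75777 was most like *Lpin1* (0.974), *Agfg2* (0.973) and *Pde1a* (0.970). *Lrp5* was most like *Abca2* (0.966), *Fbf1* (0.964) and *Tep1* (0.956), and *Znrf3* most like *Yae1d1* (0.976), *Maoa* (0.974) and *Akr1b8* (0.965). The 2 *Lgr6* probes shared none of their nearest probes. These values describe 12 arrays that share 4 groups and 3 slides.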

How the data were processed

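Total RNA of 12 cultures was labeled with Alexa-555 and hybridized in a single color. The deposited intensity values were made for the authors by GenUs Biosystems with Agilent Feature Extraction 9.5.3.1, which subtracts background. A second deposited table holds ratio values from the authors, each signal over its array's 75th percentile, which served as an alternative. Spots marked as uneven or as outliers (1327 of 520548) were left out, spots of a probe were averaged, and each array's 75th percentile was subtracted from its log2 values. Above-background marks were read on the spots kept.

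Groups were compared in 1 fit over all 12 arrays with limma, version 3.58.1, under R 4.3.3. Except where the methods' t-test or an unadjusted p is named, p-values are two-sided limma values adjusted by the Benjamini-Hochberg method. An exact permutation test of 3 arrays against 3 cannot go below 0.1. The limma p-values set each difference against the spread between arrays within groups, where each array came from its own culture. That spread also holds labeling and hybridization. The BSA arrays shared 1 slide, as did those of the combination, so without a slide term a slide difference is part of the change between them. Signal over background and 3 arrays per group limit the precision. Probes were named by accession (22951), file symbol (6650) or synonym (3109). Members and lists were chosen with earlier results of these data known. Named genes were all members and per list up to 4 genes with the largest passing change with both proteins, well above background on all arrays of BSA and of the combination, and any antagonist or R-spondin partner could be named. The fit was run on simulated data with independent noise, no slide effect and changes larger than those of the members. That run does not bear on slide or on smaller changes. The alternatives numbered 27. Figures were drawn with matplotlib 3.10.9. One gene that the rule names is not reported here.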

Additional observations from a re-analysis of the deposited data

Results flagged for a closer look

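The effect of Rspo2 on *Lgr6* differed with and without Wnt3a, by the test of that difference in limma. The change with Rspo2 in the presence of Wnt3a less the change in its absence was -1.43 on the log2 scale (adjusted p = 0.00082) for probe A_52_P616580 and -1.50 (adjusted p = 0.0197) for probe A_52_P75777. Without Wnt3a the Rspo2 arrays lay above all BSA arrays at both probes, and with Wnt3a they lay below all arrays of Wnt3a alone. With slide as a term the difference was -1.34 (adjusted p = 0.0405) and -0.86 (adjusted p = 0.255), and with normexp neither probe passed (adjusted p = 0.431 and 0.904).

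*Lgr5*, which was in no comparison, gave a signal well above background at probe A_52_P30169 on 1 array, combination replicate 1, at 21.2 intensity units, and on none of the BSA arrays, where its highest intensity was 8.41. The other *Lgr5* probe, A_51_P218091, ran the other way, well above background on BSA replicates 1 and 3 at 26.1 and 45.7 units and on no treated array. On combination replicate 1 that probe was at 13.1 units. That array had 61.7% of its probes well above background, against 56.5% and 56.3% on the other arrays of the group.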

How the results depend on the processing

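No change of a detected member probe that passed the test was reversed under any alternative run for it (23 to 26 of the 27), but 95 of 408 such recomputed values lost their call. Of values that had not passed, 17 of 963 gained one. The counts of member probes changed at least 2-fold were 0 with Rspo2, 0 with Wnt3a, 4 with both, 1 for both against Wnt3a, 0 for Wnt3a against Rspo2 and 2 for the interaction. Without the 2-fold requirement they became 1, 3, 7, 2, 1 and 2. With slide as a term the counts were 1 with both, 0 for both against Wnt3a and 1 for the interaction. For both against Wnt3a and for the interaction, normexp gave 0 and 0, and no filter on dim probes gave 0 and 1. For both against Wnt3a the count was also 0 with only the groups compared in the fit, with the methods' t-test adjusted by Benjamini-Hochberg (where 2 remained with both proteins, the *Lgr6* probes) and with the replicate block. The methods' t-test at an unadjusted p under 0.05 gave 0, 0, 4, 1 and 0. Leaving out each array in turn gave 0 to 1 with Wnt3a, 4 to 5 with both, 0 to 1 for both against Wnt3a and 1 to 3 for the interaction. Replicate numbers did not pair the arrays, since 3 of 18 same-numbered pairs had correlated deviations above 0.1 (-0.52 to 0.32). The causes of these changes were not tested. The t-test and the fit of only the groups compared give no interaction. Scalings moved the median of all probes by over 0.1 in some cases, to -0.12 with Wnt3a for the percentile over probes above background on all arrays, and to 0.15 with Rspo2 for normexp. With the former scaling *Lgr4* (A_51_P442746) passed with Wnt3a at -0.49 and *Lrp6* with both at -0.54, while *Rnf43* with both did not pass (0.58, adjusted p = 0.0521). Intensities near background limit *Lgr5*, the R-spondins and the dim *Lgr4* probe. The *Lgr6* probe A_52_P75777 was also dim with both proteins, at 42.6 to 62.3 units, which limits the size of its decrease.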
